A study of Mus musculus with 12 samples.

Results

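The loci described here are those of 5 genes of the Notch pathway, the receptors Notch1, Notch2 and Notch3, the ligand Jag1 and the target gene Hes1, in chromatin immunoprecipitation and sequencing (ChIP-seq) of mouse melanoma cells. Their peaks were chosen by position, as every deposited peak that reached within 30 kb of the gene span given for mm9. This gave 171 of the 173601 peaks of the 10 lists, 91 in the WT lists and 80 in the mutant lists. Notch1 had 56 of them, Notch2 77, Notch3 13, Jag1 9 and Hes1 16. Notch1 and these genes were picked because H3K27ac at Notch1 differed between the lists, so the H3K27ac values there are a description.

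WT cells came from auricular tumours of iBIP;KMT2D+/+ mice and mutant cells from iBIP;KMT2DL/L mice. Every mouse, WT or mutant, carried the transgenes TetO-BRAFV600E and Tyr-CreERT2, the Rosa26-rtta allele, and both INK/ARFL/L and PTENL/L, on a background mixed from FVB and B6, and received doxycycline and 4-OHT (1 uM, on the ears). The Cre is driven by the tyrosinase promoter of pigment cells, and KMT2D is an enzyme known for methylating H3K4 at enhancers. The labels state neither the age of the mice nor the number of tumours behind each culture, and the loss of KMT2D could not be checked in peak lists. Each genotype had 1 library for each of 5 histone marks: H3K4me3, found at gene starts; H3K4me1, typical of enhancers; H3K27ac, on active elements of either kind; H3K79me2, along transcribed genes; and H3K27me3, the Polycomb mark of silenced regions. No difference below therefore has a replicate check or a p-value. Read depth is unknown, and a place with no peak is one where none was called, which is not absence of the mark.

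Notch receptors sit in the membrane and are cut when a ligand of the Delta or Jagged family on a neighbouring cell binds them. The released intracellular part enters the nucleus, joins the DNA-binding protein RBPJ and turns on targets such as Hes1, a repressor of the bHLH family. In the melanocyte lineage, Notch signalling through RBPJ and Hes1 is known to maintain melanoblasts and the melanocyte stem cells of the hair follicle.

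The loci fell into 2 kinds by H3K27me3. Notch1, Notch2 and Jag1 had H3K4me3, H3K27ac and H3K79me2 and no H3K27me3 peak in either genotype. Notch3 and Hes1 had H3K27me3 over the gene start in both genotypes. These loci differed in the other marks. Hes1 also had H3K4me3, H3K27ac and H3K79me2 in both genotypes. Notch3 had H3K4me3 in both, H3K27ac in WT alone and no H3K79me2 peak. H3K4me1 peaks were found at Notch1, Notch2 and Jag1, and none within 30 kb of Notch3 or Hes1 in either list.

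**Figure D1:**
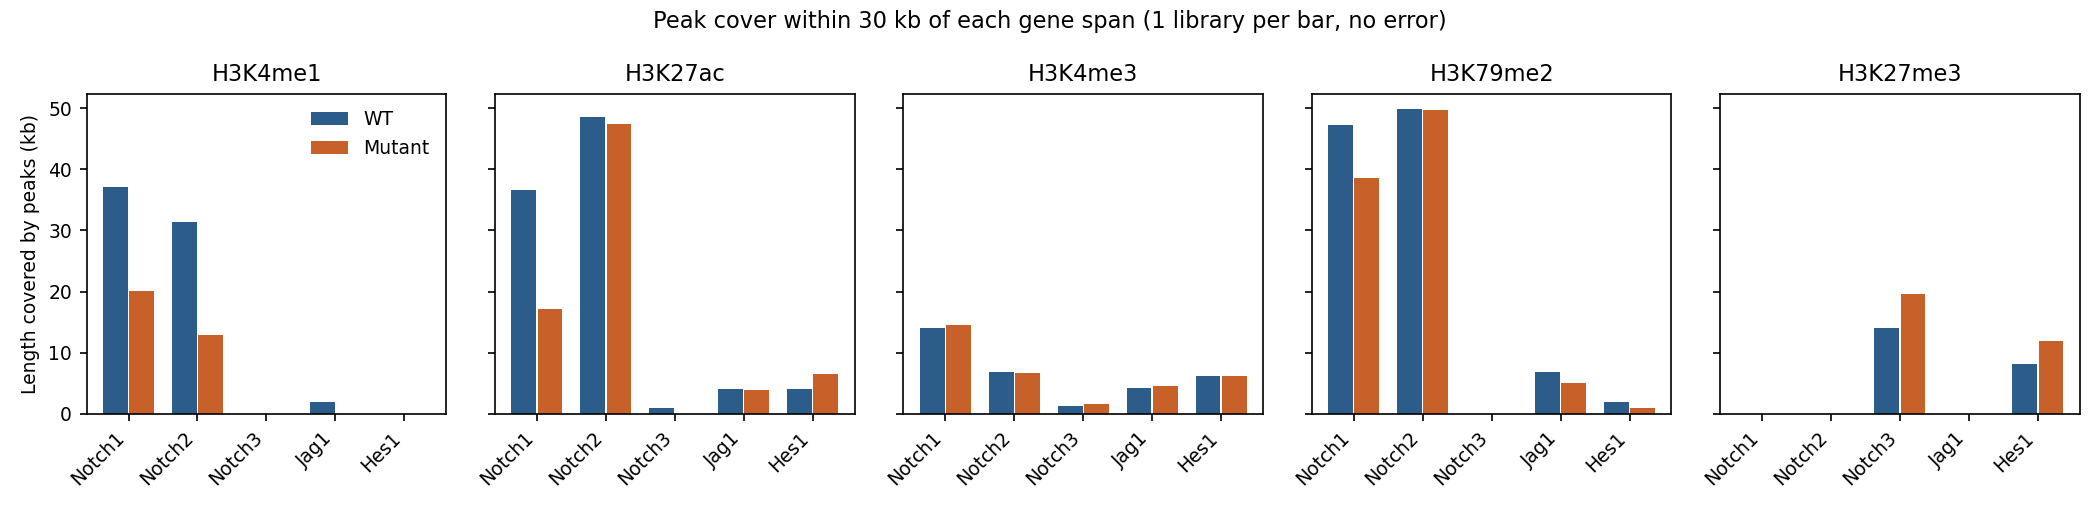
Length covered by peaks (kb, y axis) within 30 kb of each gene span, for WT (blue) and mutant (orange), 1 panel per mark and 1 library per bar, so without error bars. The mutant bars are lower for H3K4me1 at Notch1, Notch2 and Jag1 and for H3K27ac at Notch1, where WT covered 36557 bp and the mutant 17239 bp.

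Over the 5 loci, H3K4me1 cover was 70546 bp for WT against 33052 bp for the mutant, a mutant over WT ratio of 0.469 beside 0.300 for the whole lists. H3K27ac covered 94092 and 75184 bp, a ratio of 0.799 beside 1.02. Without Notch1 the H3K27ac ratio was 1.01, so the lower cover rests on that locus. H3K4me3 covered 32737 and 33650 bp (1.03 beside 1.05), H3K79me2 105807 and 94240 bp (0.891 beside 0.824), and H3K27me3 22307 and 31629 bp (1.42 beside 1.36). The summed H3K27ac ratio was thus below that of its whole lists, through Notch1, and the H3K4me1 ratio was above that of its own. The other summed ratios lay close to those of the whole lists.

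Peak by peak, 15 of the 28 WT H3K4me1 peaks at the 5 loci (53.6%, exact 95% interval 33.9 to 72.5, counting error only) had no mutant peak overlapping by at least 1 bp, where the whole WT list had 77%. With both lists held to the same number of strongest peaks it was 3 of 13 (23.1%), with no whole-list share computed at that setting. That setting cut the WT list to its 5358 strongest peaks and left the mutant list as it was. The share at the 5 loci thus depends on which WT peaks are counted. For H3K27ac it was 6 of 26 (23.1%, 8.97 to 43.6) beside 24.1%. For H3K4me3 it was 2 of 13 beside 11.3%, for H3K79me2 5 of 17 beside 36.8%, and for H3K27me3 0 of 7 beside 35%. With a −log10 q of at least 5 the H3K27me3 share was 2 of 3 (66.7%), with no whole-list share computed at that threshold. In the other direction, mutant peaks without a WT peak were 1 of 18 for H3K4me1 (27.9% in the whole list), 5 of 25 for H3K27ac (18.4%), 1 of 11 for H3K4me3 (6.18%), 2 of 19 for H3K79me2 (15.3%) and 2 of 7 for H3K27me3 (49.9%). The numbers are small and most intervals hold the value of the whole list. The intervals of the WT and the mutant H3K4me1 share lie below it, the mutant one narrowly (upper end 27.3%). Of these H3K4me1 peaks, 9 WT and 9 mutant ones lay at Notch1, and 17 and 9 at Notch2. Neighbouring peaks of 1 locus are not independent, so these intervals are no test of a difference from the whole list.

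The promoters of the 3 receptors are shown first, since their gene starts carried different marks in these lists: H3K4me3 at all 3, H3K27ac within 2000 bp of the start at Notch1 and Notch2, and H3K27me3 at Notch3. The sequences are the 250 bases before each RefSeq gene start, 5′ to 3′ on the gene's strand, on GRCm38.p6, at chr2:26503823-26504072 (minus strand), chr3:98013288-98013537 (plus) and chr17:32166891-32167140 (minus). That build is not the mm9 of the peaks, and no peak was placed on it. Capitals mark GGGCGG or its reverse complement, the core of a GC box.
Notch1: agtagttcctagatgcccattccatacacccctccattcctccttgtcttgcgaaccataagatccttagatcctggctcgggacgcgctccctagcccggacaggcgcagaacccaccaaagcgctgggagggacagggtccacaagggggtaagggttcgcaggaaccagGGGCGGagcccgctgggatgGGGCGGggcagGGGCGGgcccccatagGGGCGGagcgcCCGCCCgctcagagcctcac
Notch2: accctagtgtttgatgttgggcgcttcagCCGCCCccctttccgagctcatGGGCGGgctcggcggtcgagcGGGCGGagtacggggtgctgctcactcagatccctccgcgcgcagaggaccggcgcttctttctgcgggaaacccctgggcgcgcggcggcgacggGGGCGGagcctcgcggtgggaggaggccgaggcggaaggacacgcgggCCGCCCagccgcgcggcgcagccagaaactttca
Notch3: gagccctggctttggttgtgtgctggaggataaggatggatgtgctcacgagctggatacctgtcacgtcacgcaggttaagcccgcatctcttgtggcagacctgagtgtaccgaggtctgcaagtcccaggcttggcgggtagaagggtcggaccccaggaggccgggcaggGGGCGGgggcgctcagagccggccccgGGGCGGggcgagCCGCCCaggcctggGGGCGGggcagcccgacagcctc
All 3 had GC boxes, 5 in Notch1, 5 in Notch2 and 4 in Notch3, counting both strands and overlaps. Of the 32851 promoter entries of this table, 32.7% had at least 1 in the same 250 bases. CG dinucleotides numbered 16 in Notch1, 34 in Notch2 and 17 in Notch3, where the median entry had 6. The Jag1 promoter had 20 CG dinucleotides and no GC box. The RBPJ core TGGGAA and the E-box CATGTG, searched on both strands, were in none of the 4 promoters and in 21.6% and 12.3% of all entries. Of the 5 genes, 4 matched the table. Notch3, with H3K27me3, thus had 17 CG dinucleotides, and Notch1, Notch2 and Jag1, without it, had 16, 34 and 20. Hes1, which also had H3K27me3, had no promoter entry. Whether promoter sequence goes with the marks was not tested.

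Notch1, a receptor that signals in many cell fate decisions, spans 26.313 to 26.360 Mb of chromosome 2 on mm9 and is read from the minus strand, so its start is at the higher coordinate. In WT the 5′ part of the gene was covered by active marks. WT H3K27ac peaks lay from 26356781 to 26360541 (3761 bp, score 1120, where the MACS score reads as 10 times the −log10 p), from 26346463 to 26356511 (10049 bp, score 1679) and from 26337383 to 26344705 (7323 bp, score 1482). Together they covered 21133 of the 23159 bp between their outer edges, from 0.54 kb upstream of the start to 22.62 kb into the gene. No mutant H3K27ac peak overlapped any of them. The region without a mutant peak ran over 26506 bp, from 26334506 to 26361011.

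The acetylation on both sides of this region was found in both genotypes. On the 5′ side a WT peak of 3008 bp (26362022 to 26365029, score 581) was met by a mutant peak of 3594 bp (26361012 to 26364605, score 518), which began 470 bp beyond the last of the unshared WT peaks. On the 3′ side, 25.73 to 33.09 kb from the start, the WT peak was 7361 bp wide (26326913 to 26334273, score 1430) and the mutant peak 7538 bp (26326968 to 26334505, score 2808). It is the WT peak just outside the boundary of 26.337 Mb that sets the stretch, and mutant H3K27ac covered 99.3% of it. By score the mutant peak was 288th of 22343; ranks in lists of different length show no change between genotypes. The mutant list, with no peak over the first part of the gene, thus had one of its own stronger peaks in the next part.

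The remaining H3K27ac peaks of the Notch1 window lay outside the gene. Beyond its 3′ end, peaks were at 26299625 to 26302790 in WT (score 1122) and 26299420 to 26302472 in the mutant (score 553). RefSeq has Sec16a as the next gene on this side. Far upstream, peaks were at 26388112 to 26392540 in WT (score 2008) and 26388333 to 26393270 in the mutant (score 1071). The mutant alone had a weak peak at 26385337 to 26386722 (score 144). In the 7 WT and 5 mutant H3K27ac peaks of the window, 3 WT peaks and 1 mutant peak thus had no counterpart.

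**Figure D2:**
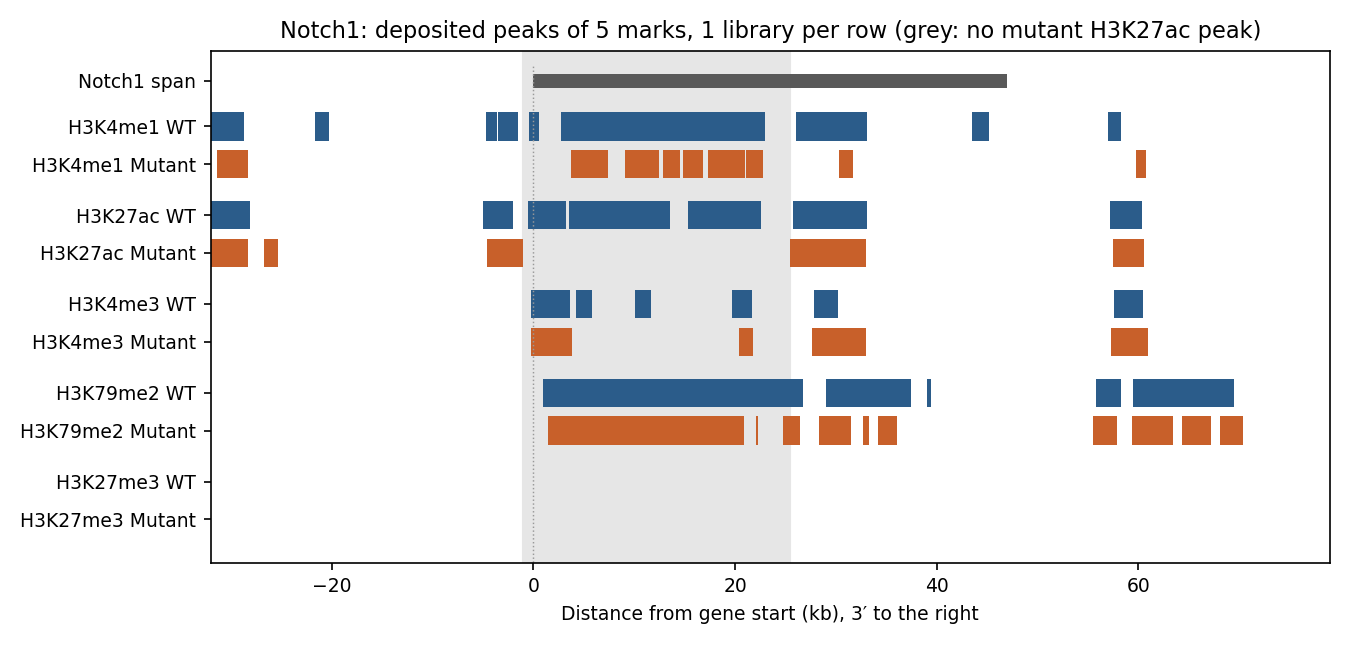
Deposited peaks of 5 marks at Notch1 as bars along the distance from the gene start (kb, x axis, 3′ to the right), 1 library per row, WT blue and mutant orange; the dark bar is the gene span and the grey band the 26506 bp without a mutant H3K27ac peak. Mutant H3K4me1, H3K4me3 and H3K79me2 peaks lie inside the band, and mutant H3K27ac peaks adjoin both of its ends.

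Strong WT H3K27ac peaks rarely lacked a mutant peak. Of the WT H3K27ac peaks with a score of 1000 or more, 7 of 3685 had none (0.19%, exact 95% interval 0.0764 to 0.391), against 66.6% of those with scores of 90 to 100. The 3 Notch1 peaks were 3 of these 7. They are neighbours at the picked locus and not independent, so the interval covers counting error only. The other 4 lay on chromosomes 1, 2, 6 and 13. In the mutant list, 7 of 2682 peaks with such a score had no WT peak (0.261%). WT H3K27ac peaks without a mutant peak formed 4148 runs, single peaks included, of which 420 had 3 or more peaks. The Notch1 run had the second greatest peak length (21133 bp), after a run of 22837 bp on chromosome 13 from 49281315 to 49306109. The third had 10443 bp. These ranks describe a locus that was picked for this pattern.

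**Figure D3:**
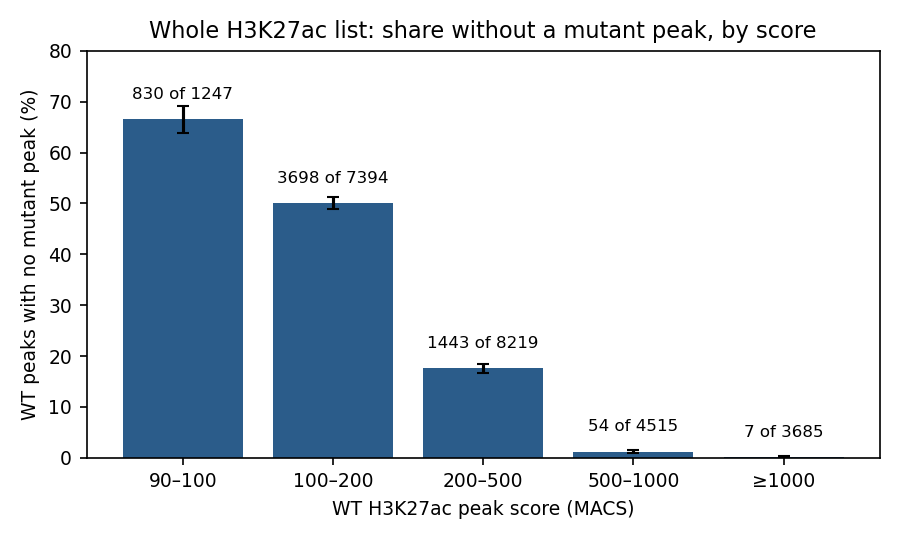
Share of WT H3K27ac peaks with no mutant H3K27ac peak (%, y axis) by WT peak score (x axis), over the whole list; error bars are exact 95% binomial intervals and cover counting error only. The share falls from 66.6% in the weakest class to 0.19% in the strongest, the class of all 3 unshared Notch1 peaks.

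The gene start of Notch1 kept its H3K4me3 in the mutant. The promoter H3K4me3 peak was 3872 bp wide in WT (26356337 to 26360208, score 3100) and 4068 bp in the mutant (26356187 to 26360254, score 2446), and the mutant peak covered all of the WT peak. In WT nearly all of this peak lay in H3K27ac; in the mutant none of it did. Of 1326 mutant H3K4me3 peaks with a score of 2000 or more, 18 had no mutant H3K27ac peak (1.36%), and the Notch1 promoter peak was 1 of them; in WT it was 22 of 2596 (0.847%). A strong promoter peak without acetylation was thus uncommon in both genotypes. The lists do not tell whether acetylation at Notch1 was low in the mutant or a peak was not called, and this was not tested.

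H3K4me1 at Notch1 differed between the stretch and its surroundings. The WT peak from 26336983 to 26357289 was 20307 bp wide, the widest H3K4me1 peak of the WT list. In the mutant, 6 separate peaks of 1610 to 3674 bp covered 78.8% of it. The best of them, from 26338998 to 26342671 (score 563), ranked 43rd of the 5358 mutant H3K4me1 peaks. Among the 15 WT H3K4me1 peaks of at least 10 kb the median mutant cover was 61.8%, and 12 of the 15 had less than Notch1, while 20.9% of all WT H3K4me1 length had a mutant peak. High cover was thus shared by other wide H3K4me1 peaks.

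Within the 23159 bp of the 3 unshared H3K27ac peaks, H3K4me1 peaks took up 20922 bp (WT) and 15810 bp (mutant), giving a ratio of 0.756. For the remainder of the Notch1 window the values were 16242 and 4354 bp, giving 0.268, near the 0.300 of the whole lists. At the 3′ element where H3K27ac was in both genotypes, the WT H3K4me1 peak of 6993 bp (26326924 to 26333916, score 1041) had 1420 bp of mutant H3K4me1. Far upstream, the WT H3K4me1 peak from 26388699 to 26394044 (score 1075) was 75.4% covered by mutant H3K4me1, and 95% of the WT H3K27ac peak there was covered too. Mutant H3K4me1 cover thus varied among places with H3K27ac in both genotypes. Over the window, H3K27ac and H3K4me1 peaks overlapped for 31011 bp (WT) and 3936 bp (mutant). The 3 unshared WT H3K27ac peaks held 7323, 10049 and 1524 bp of that WT overlap. Mutant overlap was excluded there by the choice of the stretch, so much of this difference was set in advance.

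Of the 9 WT H3K4me1 peaks in the window, 6 had no mutant peak (66.7%, exact 95% interval 29.9 to 92.5), a share near the 77% of the whole WT list. They included the peak over the gene start (26359443 to 26360457, score 124) and the pair just upstream of it, from 26361551 to 26363555 (score 312) and from 26363574 to 26364749 (score 156). The mutant thus had no H3K4me1 within 2000 bp of the start, where WT had 1465 bp. The mutant H3K4me1 peak without a WT counterpart was near the 3′ neighbour, from 26299187 to 26300267 (score 153).

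H3K4me3 inside the gene was shorter in the stretch and longer at the 3′ element in the mutant. In WT, weak H3K4me3 peaks followed the promoter at 26354208 to 26355785 (score 197) and 26348369 to 26349895 (score 267), and neither had a mutant peak. The H3K4me3 peaks near 26338315 to 26340274 were met by a mutant peak of 1460 bp. At the 3′ element the H3K4me3 peak was 2342 bp wide in WT (score 564) and 5357 bp in the mutant (score 1475). H3K4me3 cover was 8869 bp (WT) and 5528 bp (mutant) within the stretch, and 5253 and 9020 bp in the rest of the window.

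**Figure D4:**
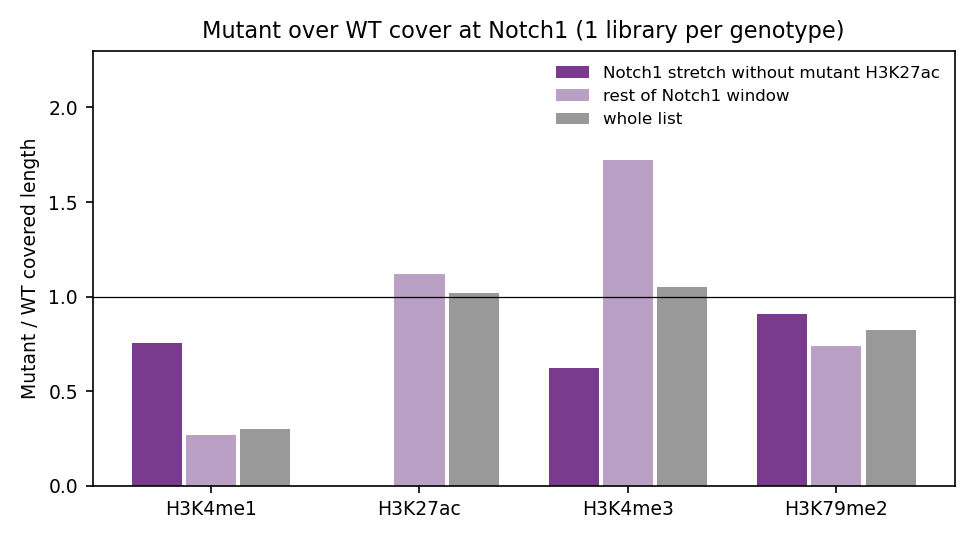
Mutant over WT ratio of covered length (y axis) for 4 marks in the Notch1 stretch of 23159 bp without mutant H3K27ac (dark purple), the rest of the Notch1 window (light purple) and the whole lists (grey), from 1 library per genotype and mark. H3K27ac is 0 in the stretch by the choice of the stretch, while H3K4me1 is 0.756 there and 0.268 around it.

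H3K79me2, laid down behind the start of transcribed genes, was present over Notch1 in both genotypes. The main WT peak ran over 25802 bp from 26333280 to 26359081 (−log10 q 13.69, the authors' fold enrichment 6.09). The main mutant peak ran over 19475 bp from 26339091 to 26358565 (−log10 q 10.00, fold 4.94) and lay wholly inside the WT peak. Within the stretch H3K79me2 cover was 21699 bp (WT) and 19682 bp (mutant), giving a ratio of 0.907. Within the stretch H3K79me2 thus differed little in length, while mutant H3K27ac peaks were missing there by the choice of the stretch. The H3K79me2 ratio was lower within 2000 bp of the start (1081 bp in WT, 565 bp in the mutant, 0.523) and over the gene span (0.78). For the whole lists it was 0.824. With a −log10 q of at least 5 the ratio over the Notch1 window was 0.667.

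Notch2, a receptor of the same family, spans 97.817 to 97.955 Mb of chromosome 3 and has its start at the lower coordinate. It had the greatest H3K27ac length of the 5 windows, though in WT a smaller share of its wider window (24.5%) than at Notch1 (34.2%). That cover was nearly equal between the genotypes, at 48517 bp in 15 WT peaks and 47447 bp in 15 mutant peaks (ratio 0.978). Mutant peaks covered 85.1% of the WT length. The peaks of best score were inside the gene, from 97858595 to 97864348 in WT (score 3088) and from 97859460 to 97872725 in the mutant (score 2924). The mutant peak was 13266 bp wide, where WT had several separate peaks. The WT peaks without a mutant peak were weak, from 97875694 to 97877178 (score 155) and from 97884712 to 97885732 (score 102). The mutant peaks without a WT peak were at 97841160 to 97842922 (score 210) and 97855157 to 97856371 (score 132).

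At the Notch2 start, H3K4me3 was found in both genotypes, 4162 bp wide in WT (97816604 to 97820765, score 3100) and 3189 bp in the mutant (97816831 to 97820019, score 1488). The H3K27ac peak there was 3680 bp wide in WT (score 1629, in the top 6.57% of its list). In the mutant a peak of 1928 bp (score 520, top 28.2%) and one of 991 bp took its place. Within 2000 bp of the start H3K27ac took up 2533 bp (WT) and 1928 bp (mutant) at Notch2. At Notch1 it took up 2541 bp and 989 bp, and the 989 bp lay upstream of the start, outside the promoter H3K4me3 peak.

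H3K4me1 had the lowest ratio of the 4 marks with peaks at Notch2. It covered 31438 bp in 17 WT peaks and 12888 bp in 9 mutant peaks, a ratio of 0.410. Each of the 9 mutant peaks overlapped a WT peak, and 7 of the 17 WT peaks (41.2%, exact 95% interval 18.4 to 67.1) had no mutant peak, beside 77% of the whole WT list. The strongest of these 7 ran from 97847117 to 97851682 (4566 bp, score 795, in the top 2.46% of the WT list); the others had scores of 190 or less. Sequence with both H3K27ac and H3K4me1 was 24768 bp (WT) and 11466 bp (mutant). The whole lists also had less H3K4me1 with nearly equal H3K27ac (0.300 and 1.02), and the H3K4me1 ratio at Notch2 was above theirs.

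H3K79me2 at Notch2 covered 49908 bp (WT) and 49765 bp (mutant), all of it within the gene span and in its first part. The widest mutant peak, 36680 bp from 97817815 to 97854494 (−log10 q 8.24), joined sequence that the WT list split at 97825872 to 97826863 and further on. The last H3K79me2 peak ended 78.72 kb from the start in WT and 71.27 kb in the mutant.

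Notch3, a receptor best known from vascular smooth muscle, spans 32.257 to 32.304 Mb of chromosome 17 and is read from the minus strand. No list had H3K4me1 or H3K79me2 within 30 kb of it. Its start carried H3K4me3 and H3K27me3 together in both genotypes. The H3K4me3 peak was short and weak, 1307 bp in WT (32302782 to 32304088, score 163) and 1559 bp in the mutant (32302837 to 32304395, score 145), and all of it lay in H3K27me3. The H3K27me3 peak was 8997 bp wide in WT (32296983 to 32305979, −log10 q 7.0) and 8752 bp in the mutant (32296943 to 32305694, −log10 q 8.63).

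Around this peak the mutant list held more H3K27me3, 19674 bp against 14120 bp over the window (ratio 1.39 beside 1.36 in the whole lists). Mutant H3K27me3 without a WT peak was found at 32294153 to 32296017 and 32234321 to 32235122. Both genotypes had H3K27me3 upstream, 3114 bp in WT (32324342 to 32327455) and 6273 bp in the mutant (32321611 to 32327883), on the side where RefSeq places Ephx3. The only H3K27ac peak near Notch3 was in WT, from 32227606 to 32228539 (score 199), 28.5 kb beyond the 3′ end and just inside the window. Notch3 thus had a weak H3K4me3 peak within H3K27me3 at its start in both genotypes. Its expression was not measured here.

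Jag1, a membrane ligand of the Notch receptors, spans 136.907 to 136.943 Mb of chromosome 2 on the minus strand. H3K4me3 and H3K27ac were gathered at its start, each within a single peak of like length in the 2 genotypes. H3K4me3 was 4157 bp wide in WT (136939442 to 136943598) and 4613 bp in the mutant (136939297 to 136943909), both with a score of 3100, a value that many peaks share and that does not rank them. H3K27ac was 4058 bp wide in WT (136939882 to 136943939, score 1425) and 3913 bp in the mutant (136939826 to 136943738, score 876), with 95% of the WT peak covered.

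The WT list had 2 H3K4me1 peaks at Jag1, at 136935249 to 136936451 (1203 bp, score 155) and at 136906134 to 136906874 (741 bp, score 105), and the mutant list none. H3K79me2 covered 6781 bp in 2 WT peaks and 4983 bp in 1 mutant peak; the WT peak at 136941020 to 136942401, next to the start, had no mutant counterpart. Upstream of Jag1 the nearest peak of any list was 1139 kb away. Jag1 thus had H3K4me3 and H3K27ac at its promoter in both genotypes. Its weak WT H3K4me1 peaks had no mutant peak, like 77% of that list.

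**Figure D5:**
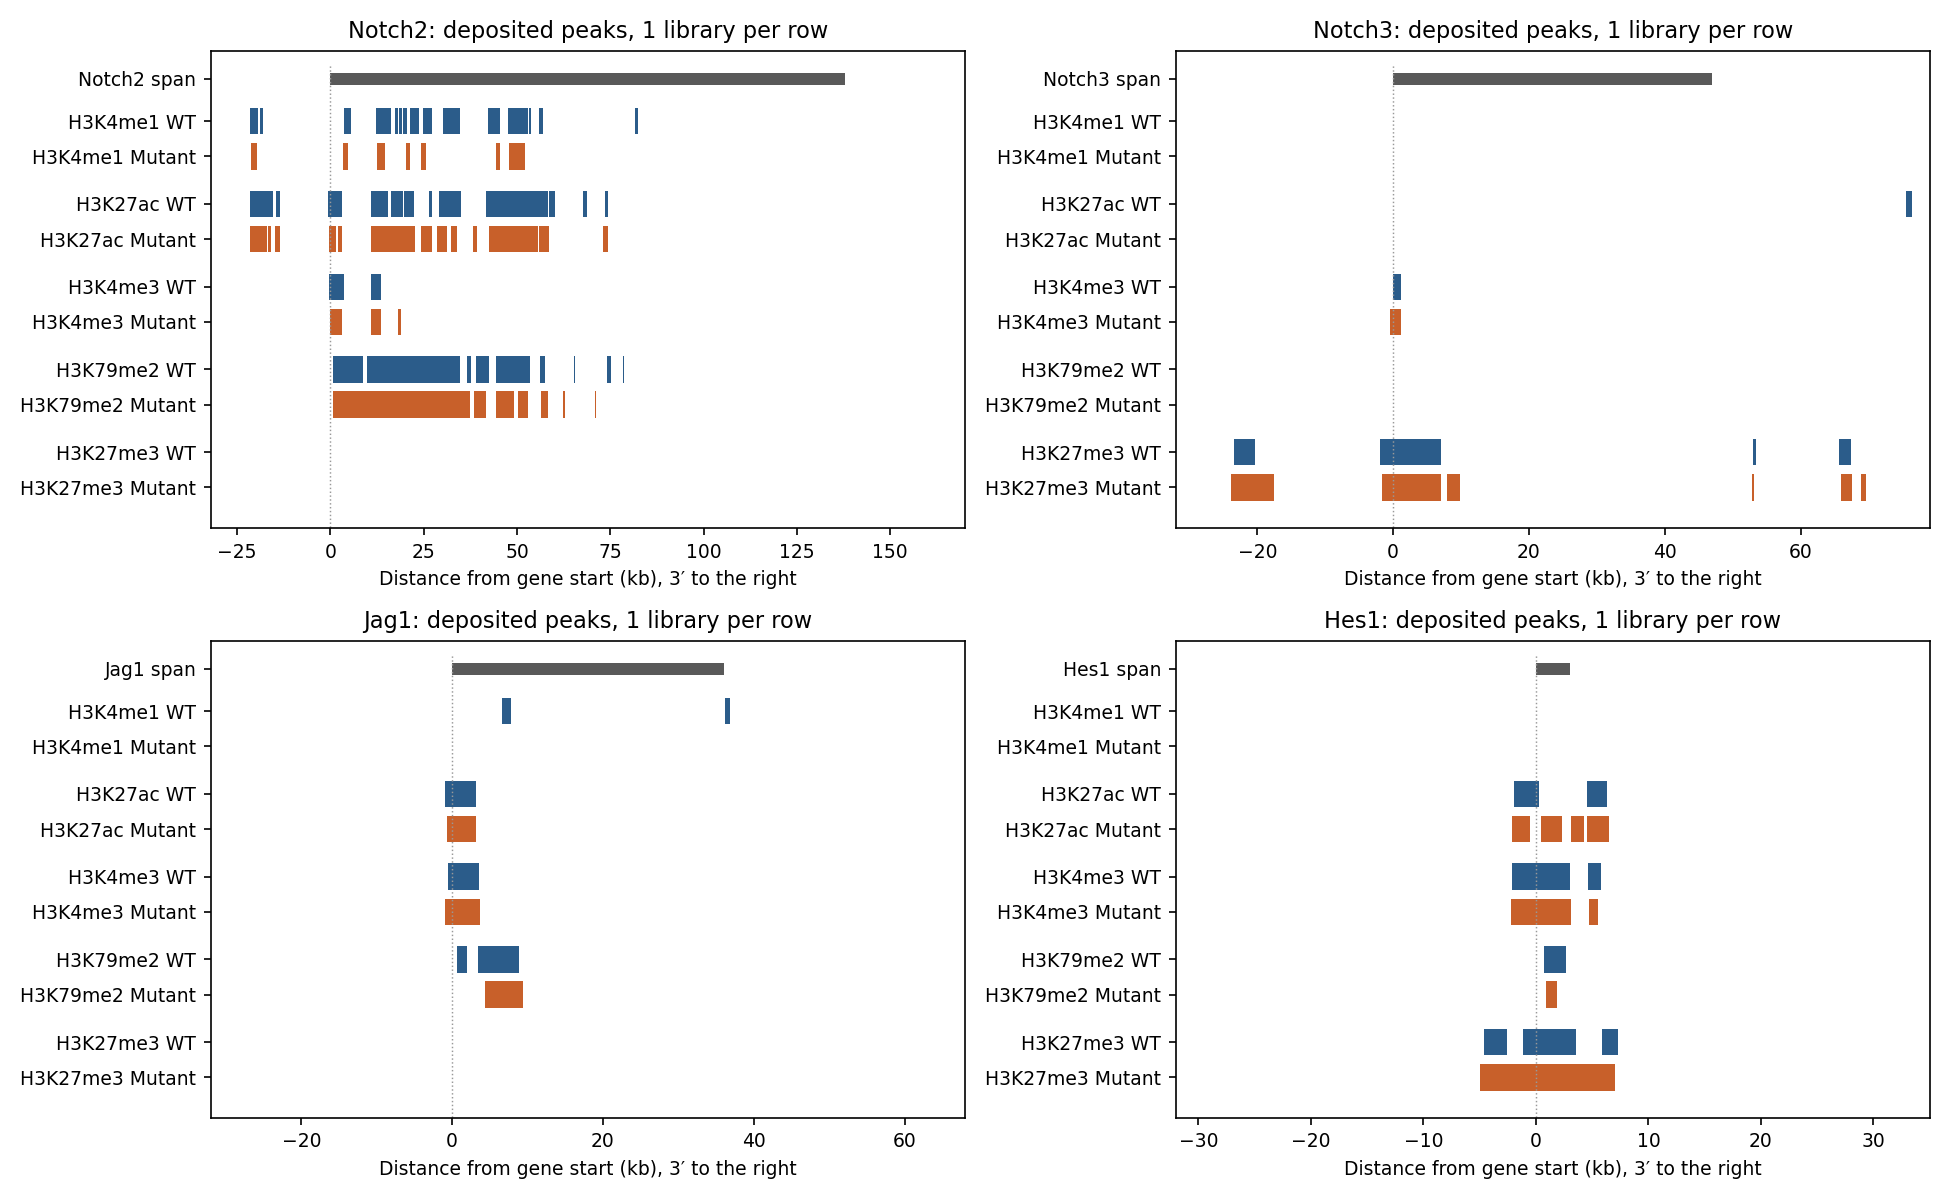
Deposited peaks of 5 marks at Notch2, Notch3, Jag1 and Hes1 as bars along the distance from each gene start (kb, x axis, 3′ to the right), 1 library per row, WT blue and mutant orange; the dark bar is the gene span. H3K27ac bars are nearly alike at Notch2 and Jag1, H3K27me3 lies over the starts of Notch3 and Hes1, and Hes1 has more H3K27ac bars in the mutant.

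Hes1, the bHLH repressor turned on by Notch signalling, spans 30.065 to 30.068 Mb of chromosome 16. It carried H3K4me3, H3K27me3, mostly weak H3K27ac and short H3K79me2 peaks in both genotypes. H3K4me3 covered the start in a peak of 5071 bp in WT (30062926 to 30067996, score 2300) and 5352 bp in the mutant (30062759 to 30068110, score 1421). A second, smaller H3K4me3 peak lay downstream in both; RefSeq has Gm32998 as the next gene on that side.

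H3K27ac at Hes1 was longer in the mutant, at 6585 bp in 4 peaks against 4026 bp in 2 WT peaks (ratio 1.64). The WT peak at the start ran from 30063043 to 30065287 (score 246). In the mutant, peaks lay at 30062923 to 30064524 (score 119), 30065454 to 30067359 (score 193) and 30068083 to 30069241 (score 160), and the second of these covered the gene body, with no WT peak. These peaks were weak in their lists. The best H3K27ac peak at Hes1 lay downstream and was in both genotypes, from 30069564 to 30071344 in WT (score 294, top 50.6% of its list) and from 30069584 to 30071501 in the mutant (score 374, top 39.4%). With a MACS score of at least 200 only that mutant peak (1918 bp) was left and the ratio was 0.476, so the direction depends on the threshold. H3K79me2 over the gene was 1947 bp (WT) and 983 bp (mutant).

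H3K27me3 at Hes1 was 1 peak of 11955 bp in the mutant (30060057 to 30072011, −log10 q 5.59). In WT it was 3 peaks, of 2003, 4735 and 1449 bp, that lay within or over the edge of the same region (8187 bp in all). Sequence under both H3K4me3 and H3K27me3 was 4150 bp (WT) and 6175 bp (mutant), and that under both H3K27ac and H3K27me3 was 1931 and 6585 bp. The overlap of H3K79me2 and H3K27me3 was 1947 and 983 bp. Marks of opposite kinds were thus listed over the same sequence in both genotypes, with a greater length in the mutant for the first 2 pairs and a smaller one for the last. These lengths depend on the threshold. With a −log10 q of at least 5 no WT H3K27me3 peak was left at Hes1. With a MACS score of at least 200 mutant H3K27ac covered 1918 bp. The overlaps were not computed at those thresholds. In a culture these can lie in different cells or alleles, which peak lists cannot tell apart. The nearest peak outside the window was a WT H3K27ac peak 39.1 kb upstream (30024863 to 30025887).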

How the data were processed

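Per the labels' protocols, chromatin was sheared by sonication, libraries were amplified by PCR and fragments in a window of short sizes were retained. What is described here begins with 10 peak files as the authors deposited them, 1 library to a file; the 2 input libraries were not analysed here. The submitters' processing notes list mm9 as build and Bowtie, MACS, MACS2 and deepTools as tools, with neither version nor role. The deposited lists of H3K4me1, H3K27ac and H3K4me3 give a score per peak, which reads as 10 times the −log10 p. For H3K79me2 and H3K27me3 the deposited files have the columns of MACS2 broad peaks, with a fold enrichment (ratio), a −log10 p, a −log10 q and a score. These are the authors' values and served for ranking and description inside 1 list, and for filtering. The stricter thresholds set the same cutoff for the lists of both genotypes, whose scores may not be comparable. Read depth is unknown.

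Groups came from the sample titles. Gene spans were given rounded to 1 kb; an H3K4me3 peak lay over each start in both genotypes. Covered length was summed over each span with 30 kb on each side, peaks being clipped to that window. The gene start is the span's 5′ end ± 2000 bp. Positions are counted from 1. Peaks at the edge of the windows were 28.7 kb (inside) and 32.5 kb (outside) upstream of Notch1. No test between genotypes was possible with 1 library each, and shares carry exact (Clopper-Pearson) 95% intervals. The members and lists were chosen with earlier results of these data known. All 5 genes are described; peaks named singly by rule are all H3K27ac peaks at Notch1, those at gene starts, the widest or best per mark, and those at the edges. Other peaks named, mostly those without a counterpart, were chosen after their values were seen. Further Notch pathway genes and melanocyte markers were not analysed, since the gene table used here is on GRCm38.p6; it served for neighbours and promoter sequence. Alternatives were stricter thresholds, merging within 1000 bp, flanks of 10 kb and none, whole peaks, lists of the same length, and other overlap rules. The scripts ran under Python 3.11.15 with scipy 1.17.1, numpy 2.4.6 and, for plots, matplotlib 3.10.9. Overlaps and lengths were tested on simulated intervals.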

Additional observations from a re-analysis of the deposited data

How the results depend on the processing

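Of 83 alternative values for the summed ratios, the shares without a mutant peak and the count of unshared Notch1 H3K27ac peaks, 78 stayed within 1.5 times and, for ratios, on the same side of 1, or within the exact interval (shares). At the still stricter threshold (−log10 q from 5 up, or a MACS score from 200 up) the ratio over the 5 loci was 0.303 for H3K4me1 and 2.52 for H3K27me3. There 2 of 3 WT H3K27me3 peaks (66.7%) had no mutant peak. That threshold leaves fewer peaks. With both lists held to the same number of strongest peaks, 3 of 13 WT H3K4me1 peaks (23.1%) had no mutant peak. In the gene span alone the H3K4me3 ratio was 0.992. Single loci crossed a ratio of 1 as follows. For H3K27ac, Notch2 had 1.02 with lists of the same length, Jag1 1.02 in the gene span and Hes1 0.476 at the still stricter threshold. For H3K4me3, Notch1 had 0.987 after merging within 1000 bp, 0.971 with flanks of 10 kb and 0.966 in the gene span, where Notch2 had 1.01, Notch3 0.955 and Hes1 1.00. For H3K79me2 at Notch2 the ratio was 1.07 at the still stricter threshold and 1.02 with lists of the same length. Single-locus ratios that moved by over 1.5 times were 0.194 for H3K4me1 at Notch2 and 0 for H3K79me2 at Jag1 (still stricter threshold), and 0.27 for H3K27ac at Notch1 and 6.64 at Hes1 (gene span). The cause was not tested. The unshared Notch1 H3K27ac peaks numbered 3 under 6 alternatives, and 2 after merging or with mutant peaks within 1000 bp counted as shared. No ratio could be given where WT had no peak left: at the still stricter threshold for H3K4me1 at Jag1, H3K27ac and H3K4me3 at Notch3 and H3K27me3 at Hes1, with flanks of 10 kb or none for H3K27ac at Notch3, and with lists of the same length for H3K4me1 at Jag1. Depth is unknown, so what it limits cannot be given. No paired analysis was possible because each genotype and mark had 1 library and the labels carry no replicate numbers.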
